A study of Mus musculus with 9 samples.

Results

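The 34 genes described here mark astrocytes or carry out their main functions. They were taken by name as the rows for known astrocyte marker and function genes in a table of read counts, and all 34 were present among 18956 gene symbols. The tissue was labelled as the anterior paraventricular nucleus of the thalamus of BALB/c mice and was sequenced as bulk RNA in 9 libraries. The groups, of 3 libraries each, were mice stressed by 5 days of social defeat that received the ketamine metabolite (2S,6S)-HNK (SHNK), mice stressed in the same way that received saline (stressed saline), and undefeated mice that received saline (non-stressed saline). Social defeat places a mouse repeatedly in contact with an aggressive one. None of these groups combines SHNK with no defeat. Age, sex, dose and timing are not in the labels, nor is it stated that each library is a different animal, so p-values measure the spread between these libraries, which may in part be technical.

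Astrocytes take up glutamate and potassium released by neurons, convert glutamate to glutamine, couple to each other through gap junctions and place water channels on end-feet around vessels. They also supply cholesterol in lipoproteins, store glycogen and make lactate. In the reactive state that follows injury or inflammation they raise intermediate filament proteins, foremost GFAP, and in the healthy thalamus GFAP is known to be sparse while the uptake and metabolic genes are widely expressed. Several of the 34 genes are not restricted to astrocytes: ependymal cells express Vim, Clu and Sox9, microglia express Apoe and Cst3, oligodendrocytes express Glul, and endothelial cells express Vim, Mt1 and Mt2. In bulk tissue, fewer cells of a type and less RNA per cell cannot be told apart.

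Total counts ran from 32307869 to 51569143 per library, and the 34 genes took 1.75 to 1.80% of them in SHNK, 2.04 to 2.44% in stressed saline and 2.08 to 2.27% in non-stressed saline libraries. All 34 passed the filter on low counts, the lowest count of any member in any library being 407 (Gfap). In CPM (counts scaled to a common library size), 4 genes of thalamic neurons had these ranges over the 9 libraries: Calb2 ran from 1685 to 2407, Slc17a6 from 483 to 711, Gal from 18.6 to 27.1 and Drd2 from 3.92 to 7.65. These 4 genes were chosen after their values were seen, and the table lists no gene at 0, so they are no test of the labelled tissue. The mean log2 CPM of 13 habenula genes, which mark the nucleus beside this one, was 1.21 ± 0.31 in SHNK, 4.87 ± 0.80 in stressed saline and 2.81 ± 0.60 in non-stressed saline libraries (SD, n = 3). The list held 15 genes, of which 13 were in the count table. With SHNK against stressed saline 12 of the 13 fell, where 3.96% of all tested genes did. In stressed against non-stressed saline 10 of the 13 rose, where 1.15% of all tested genes did. That number was 2 without non-stressed saline replicate 1, 3 without non-stressed saline replicate 2 and 4 without stressed saline replicate 2. It was 10 or 11 without any other library.

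Levels of the 34 genes differed widely. Per kilobase of exon, the mean over the 9 libraries was highest for Apoe, the main apolipoprotein of the brain (2439 CPM per kilobase), and Cst3, a secreted inhibitor of cysteine proteases (1985). Next came the glycolytic enzyme Aldoc (733), the matricellular protein Sparcl1 (709), the chaperone and apolipoprotein Clu (443) and Ndrg2 (385). The 4 markers that define the cell type were much lower, at 21.4 CPM per kilobase for Aldh1l1, a folate enzyme, 17.2 for the transcription factor Sox9, 11.9 for the water channel Aqp4 and 9.62 for Gfap. Gpam, which begins glycerolipid synthesis, was the lowest at 3.68. All 4 markers had at least 407 counts in every library. The glutamate transporters Slc1a3 (GLAST) and Slc1a2 (GLT-1) stood at 76.1 and 28.2 CPM per kilobase; exon length was taken over all annotated transcripts, which lowers the value of genes with long alternative ends.

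**Figure D1:**
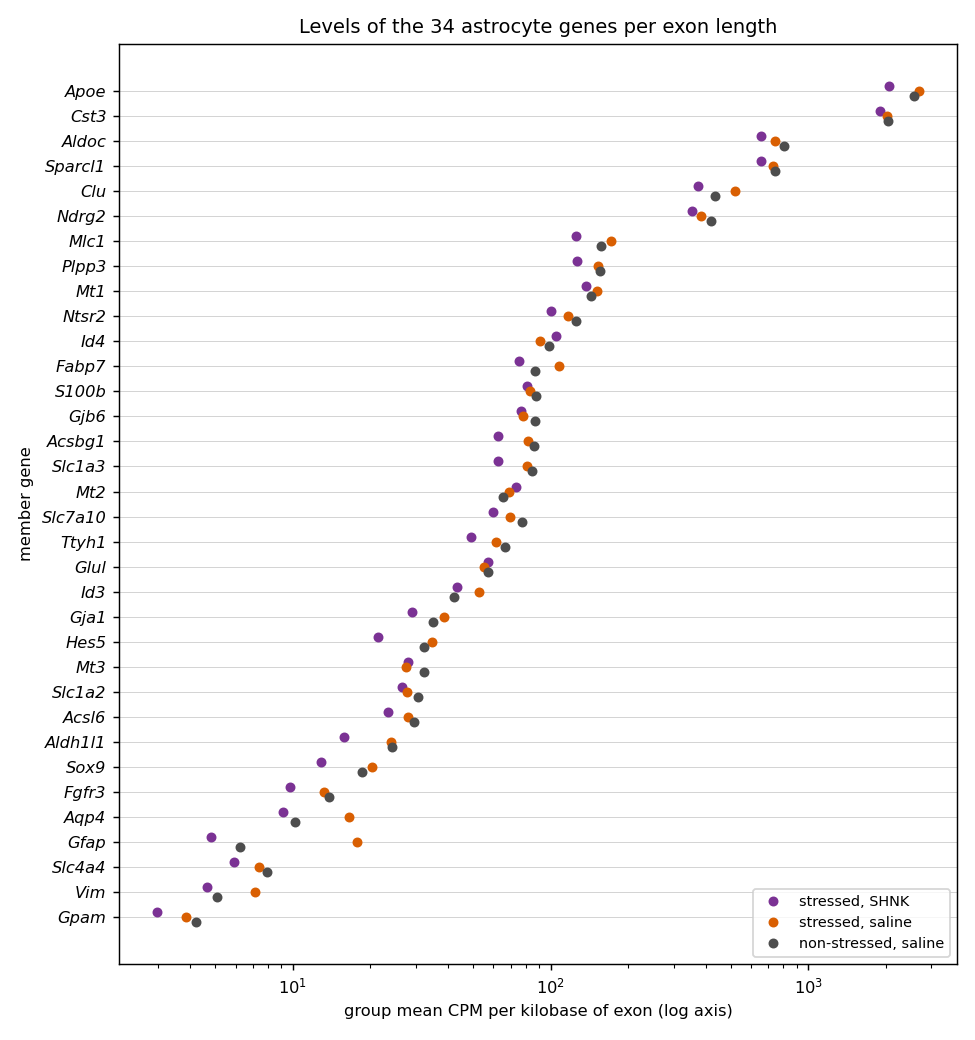
Group mean level of each of the 34 astrocyte genes, in CPM per kilobase of exon on a log axis, for stressed SHNK, stressed saline and non-stressed saline libraries (3 each). Genes run from Gpam at the bottom to Apoe at the top, and the stressed saline point of Gfap lies to the right of both other groups.

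The 34 genes moved in more than one way. The reactive members Gfap, Vim and Aqp4 were highest in the 3 stressed saline libraries. Another 15, among them Slc1a3, Aldh1l1, Sox9 and Hes5, were lowest in the 3 SHNK libraries. The metallothioneins, Glul, S100b, Cst3, Gjb6 and Slc1a2 were among the 20 members that passed in no comparison by edgeR. With SHNK against stressed saline 14 of 34 members fell and 0 rose (41.2% of the members, where 3.96% of all 18194 tested genes fell, 2.45% rose and 6.41% did either), in edgeR's quasi-likelihood test at a Benjamini-Hochberg adjusted p under 0.05 over all tested genes. The count was 5 without SHNK replicate 2, 5 without SHNK replicate 3, 8 without stressed saline replicate 1 and 9 without SHNK replicate 1 or stressed saline replicate 2. With stressed against non-stressed saline 2 members rose and 0 fell (5.88% rose, where 1.15% of all tested genes rose, 0.0165% fell and 1.17% did either), and without stressed saline replicate 2 or non-stressed saline replicate 2 the count was 0. With SHNK against non-stressed saline 0 members passed by edgeR (0.0055% of all tested genes did), although 19 had an unadjusted p under 0.05 (18.3% of all tested genes). The same comparison gave 13 members by DESeq2, 0 by limma voom and, without non-stressed saline replicate 2, 9 by edgeR. At an unadjusted p under 0.05 there were 22 members in SHNK against stressed saline (23.3% of all tested genes) and 6 in stressed against non-stressed saline (9.45%). Over all 18194 tested genes, calls numbered 2005 by DESeq2 and 2377 by limma voom in SHNK against stressed saline. They numbered 472 and 102 in stressed against non-stressed saline, and 994 and 1 in SHNK against non-stressed saline. These shares and counts are the background for the lists below. Median log2 fold changes over the 34 genes were -0.30, -0.048 and -0.29 in these comparisons, beside -0.0091, -0.017 and -0.0049 over all tested genes. Each pair of comparisons shares a group of libraries, so their values are set side by side and not correlated.

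**Figure D2:**
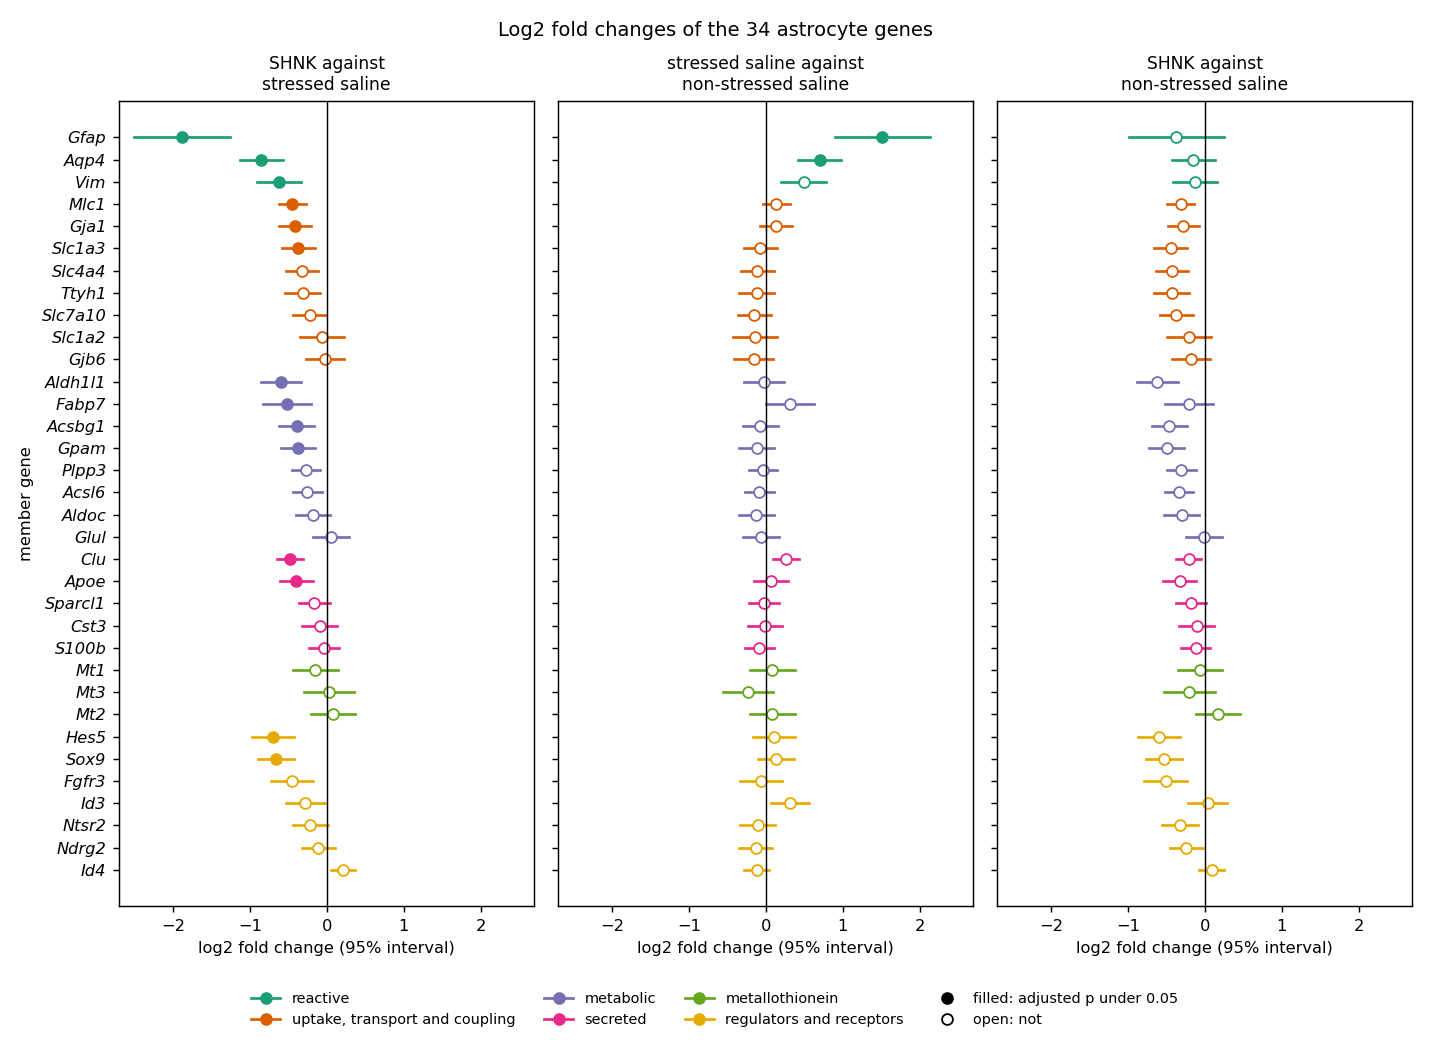
Log2 fold change of each of the 34 members with its 95% interval in the 3 comparisons, coloured by role; filled points have an edgeR adjusted p under 0.05. In the left panel 14 points are filled, all below 0, in the middle panel only Gfap and Aqp4 are, above 0, and in the right panel none is.

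Gfap and Aqp4, both reactive members, were the 2 of 34 that passed between stressed and non-stressed saline. Gfap had 34.8, 14.9 and 11.1 CPM in SHNK libraries, against 66.8, 85.0 and 73.7 in stressed saline and 25.1, 26.2 and 27.6 in non-stressed saline libraries. Every stressed saline library lay above the other 6, and SHNK replicate 1 lay above the non-stressed range while SHNK replicates 2 and 3 lay below it. Gfap (ENSMUSG00000020932.14, chr11:102887336-102900912, minus strand, GRCm38) encodes the main intermediate filament protein of astrocytes. It fell with SHNK against stressed saline, at -1.89 ± 0.29 as log2 fold change ± standard error (adjusted p = 0.00393), or 0.271-fold, 95% interval 0.176 to 0.417. It rose in stressed against non-stressed saline by 1.51 ± 0.29 (adjusted p = 0.0181), or 2.86-fold, 95% interval 1.86 to 4.38. Between SHNK and non-stressed saline the log2 fold change was -0.37 ± 0.29 (adjusted p = 0.533), and the 95% interval of the ratio, 0.504 to 1.18, included 1. Without SHNK replicate 1 the log2 fold change was -2.53 against stressed saline (adjusted p = 4.06e-06) and -1.003 against non-stressed saline (adjusted p = 0.0711). For SHNK against stressed saline, Gfap kept its call whichever of the 9 libraries was removed (highest adjusted p = 0.0240). For stressed against non-stressed saline, Gfap lost its call on removal of stressed saline replicate 2 or non-stressed saline replicate 1 or 2 (adjusted p from 0.0875 to 0.0911). Gfap was also the member with the widest spread within groups, with an average coefficient of variation of 26.7%.

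Aqp4 had 58.5, 50.4 and 62.2 CPM in SHNK libraries, against 95.04, 120.5 and 92.8 in stressed saline and 70.0, 67.9 and 52.0 in non-stressed saline libraries. The stressed saline libraries again did not overlap with the rest, and the other two groups overlapped. Aqp4 (chromosome 18 of GRCm38) encodes the water channel of astrocyte end-feet. It fell with SHNK against stressed saline, at a log2 fold change of -0.85 ± 0.13 (adjusted p = 0.00371) and rose in stressed against non-stressed saline by 0.70 ± 0.13 (adjusted p = 0.0161). The SHNK to non-stressed ratio had a 95% interval of 0.742 to 1.09 (adjusted p = 0.583). For SHNK against stressed saline, Aqp4 kept its call whichever of the 9 libraries was removed (highest adjusted p = 0.0249). For stressed against non-stressed saline, Aqp4 lost its call on removal of stressed saline replicate 2 or non-stressed saline replicate 2 (adjusted p = 0.1004 and 0.0513).

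Vim had 26.2, 19.3 and 20.5 CPM in SHNK libraries, against 29.8, 40.4 and 31.3 in stressed saline and 24.0, 24.9 and 23.3 in non-stressed saline libraries. All stressed saline libraries exceeded the other 6, by a smaller margin than for Gfap, and the remaining groups overlapped. Vim (ENSMUSG00000026728.9, chr2:13573927-13582826, plus strand) encodes vimentin, an intermediate filament protein that pairs with GFAP in reactive astrocytes and is also made by ependymal and vascular cells. It fell with SHNK against stressed saline, at a log2 fold change of -0.62 ± 0.13 (adjusted p = 0.0177). In stressed against non-stressed saline its log2 fold change of 0.49 ± 0.13 did not pass by edgeR (adjusted p = 0.118) or limma voom (0.176) and passed by DESeq2 (0.0243). Against non-stressed saline the SHNK value was -0.13 ± 0.14 (adjusted p = 0.665). In SHNK against stressed saline, Vim lost its call on removal of SHNK replicate 2 or 3 or stressed saline replicate 2 (adjusted p from 0.0795 to 0.104).

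**Figure D3:**
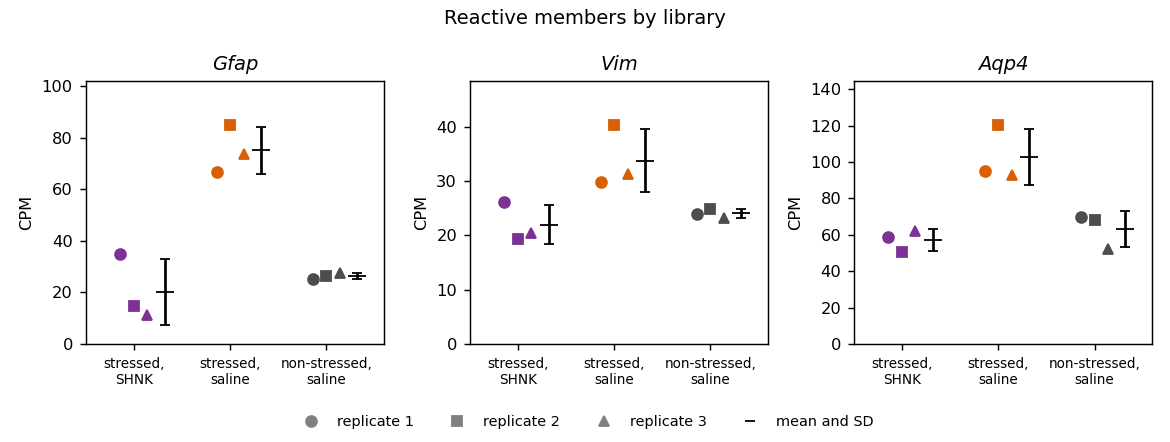
Level in CPM of Gfap, Vim and Aqp4 in each of the 9 libraries by group, with the group mean and SD (n = 3) beside the points. In each panel the 3 stressed saline libraries lie above the other 6, and replicate 2 is the highest of them.

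Ependymal genes moved with the reactive members in SHNK against stressed saline and in stressed against non-stressed saline. All 30 genes of a list of ependyma and motile cilia were tested. With SHNK against stressed saline 15 fell (3.96% of all tested genes fell), and in stressed against non-stressed saline 18 rose (1.15% of all tested genes rose). In SHNK against non-stressed saline 0 passed by edgeR (2 by DESeq2, 0 by limma voom, 6 with an unadjusted p under 0.05). In that comparison 18.3% of all tested genes had an unadjusted p under 0.05. There 24 of the 30 log2 fold changes were above 0 (median 0.28), while all 3 reactive members lay below 0 (median -0.15) without passing. The number that fell became 1 without SHNK replicate 2, 0 without SHNK replicate 3 and 3 without stressed saline replicate 2, and the number that rose became 4 without stressed saline replicate 2, 4 without non-stressed saline replicate 1 and 8 without non-stressed saline replicate 2. Their mean log2 CPM was 2.41 ± 0.30 in SHNK, 3.22 ± 0.29 in stressed saline and 2.18 ± 0.16 in non-stressed saline libraries (SD, n = 3), and their summed level ran over 205 to 304 CPM in SHNK, 343 to 506 CPM in stressed saline and 189 to 227 CPM in non-stressed saline libraries. Stressed saline replicate 2, highest of the 9 for Gfap, Vim and Aqp4, was also highest for the ependymal mean (3.54), and SHNK replicate 1, highest of its group for Gfap and Vim, was highest of its group for the ependymal mean (2.75, against 2.20 and 2.29 for the other two); for Aqp4, SHNK replicate 3 was the highest of its group. The habenula mean was also highest in stressed saline replicate 2, at 5.67. The part of ependymal or habenular tissue in the reactive result was not tested.

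A ratio within each library does not depend on scaling. Counts of Gfap per count of Aldh1l1, a marker of astrocytes in general, were 0.438, 0.207 and 0.174 in SHNK, against 0.515, 0.921 and 0.719 in stressed saline and 0.224, 0.263 and 0.234 in non-stressed saline libraries. Stressed saline libraries were the highest 3 on this ratio too, with SHNK replicate 1 close to the lowest of them. Aqp4 per Aldh1l1 was 0.737, 0.702 and 0.977 in SHNK, against 0.733, 1.31 and 0.907 in stressed saline and 0.625, 0.681 and 0.440 in non-stressed saline libraries. On this second ratio SHNK and stressed saline libraries overlapped; Aldh1l1 was itself lower in SHNK, and the SHNK libraries lay above all non-stressed ones. Vim per Aldh1l1 was 0.330, 0.269 and 0.323 in SHNK, against 0.230, 0.438 and 0.305 in stressed saline and 0.214, 0.250 and 0.197 in non-stressed saline libraries. Stressed saline was not set apart on this ratio, with its replicate 1 below all SHNK libraries and inside the non-stressed range. Slc1a3 per Aldh1l1 was 7.07, 7.13 and 8.30 in SHNK, against 6.31, 6.69 and 6.18 in stressed saline and 6.71, 6.98 and 6.14 in non-stressed saline libraries, so Slc1a3 stood higher relative to Aldh1l1 in all SHNK libraries than in the other 6.

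The 250 bases before the start of Gfap and Vim, both highest in stressed saline libraries, are shown with those of Hes5, a Notch target described below that fell with SHNK. They are from RefSeq on GRCm38.p6 (chr11:102897201-102897450 on the minus strand for Gfap, chr2:13574061-13574310 on the plus strand for Vim, chr4:154960673-154960922 on the plus strand for Hes5), 5′ to 3′, with capitals marking GTGGGAA, the motif of the Notch partner RBPJ, on either strand.
Gfap: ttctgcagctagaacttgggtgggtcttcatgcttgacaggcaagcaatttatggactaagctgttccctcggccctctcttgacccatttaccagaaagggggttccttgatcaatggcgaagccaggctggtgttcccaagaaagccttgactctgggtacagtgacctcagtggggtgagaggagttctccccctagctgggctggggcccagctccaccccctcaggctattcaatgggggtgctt
Vim: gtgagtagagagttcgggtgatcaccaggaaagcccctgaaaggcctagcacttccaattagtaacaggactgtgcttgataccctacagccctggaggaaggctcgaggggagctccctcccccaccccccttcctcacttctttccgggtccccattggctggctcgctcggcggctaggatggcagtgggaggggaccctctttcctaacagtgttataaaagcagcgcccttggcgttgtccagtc
Hes5: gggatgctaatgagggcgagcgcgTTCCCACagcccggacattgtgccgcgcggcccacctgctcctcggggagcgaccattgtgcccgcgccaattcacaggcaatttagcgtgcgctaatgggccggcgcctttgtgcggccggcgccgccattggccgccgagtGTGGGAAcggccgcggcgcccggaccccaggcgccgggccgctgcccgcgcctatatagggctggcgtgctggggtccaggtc
The motif stood at 2 places before Hes5, starting 226 and 83 bases upstream of its start, and at 0 before Gfap and 0 before Vim. The 30 members with a sequence in the table had 40 windows, of which 3 held it (1 each of Hes5, Aldoc and Mt2), while 5.42% of all 32851 windows of the same length did. The spaced palindrome TTCNNNGAA, bound by STAT factors, was found in 4 of the 40 (Slc1a3, Aldoc, Acsbg1 and Ntsr2) and in 7.02% of all windows. These are matches of letters only. GENCODE bounds of Gfap and Vim, which cover all transcripts, reach beyond these RefSeq starts.

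As a mean, genes of uptake, transport and coupling were lowest in the SHNK libraries. Of 8, 3 fell with SHNK against stressed saline and 5 did not pass, with a median log2 fold change of -0.32; 0 passed by edgeR in stressed against non-stressed saline (median -0.11; 0 by DESeq2, 0 by limma voom, 0 with an unadjusted p under 0.05) and 0 in SHNK against non-stressed saline (median -0.34; 5 by DESeq2, 0 by limma voom, 6 with an unadjusted p under 0.05). The mean log2 CPM of the 8 was 7.89 ± 0.012 in SHNK, 8.15 ± 0.18 in stressed saline and 8.22 ± 0.0079 in non-stressed saline libraries (SD, n = 3), and the SHNK libraries overlapped with neither saline group. Slc1a3 had 562, 512 and 528 CPM in SHNK libraries, against 819, 618 and 633 in stressed saline and 752, 696 and 726 in non-stressed saline libraries. SHNK libraries lay below all 6 saline libraries. Slc1a3, a glutamate transporter (ENSMUSG00000005360.14, chr15:8634124-8710764, minus strand), fell with SHNK against stressed saline, at a log2 fold change of -0.37 ± 0.10 (adjusted p = 0.0434), with -0.072 ± 0.10 in stressed against non-stressed saline (adjusted p = 0.947) and -0.44 ± 0.10 in SHNK against non-stressed saline (adjusted p = 0.0807). Slc1a3 lost its call on removal of SHNK replicate 2 or 3, stressed saline replicate 1 or 2 or non-stressed saline replicate 1 (adjusted p from 0.0503 to 0.163).

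Mlc1 had 364, 338 and 354 CPM in SHNK libraries, against 535, 446 and 459 in stressed saline and 434, 424 and 455 in non-stressed saline libraries. Mlc1, a membrane protein of astrocyte end-feet whose loss in humans causes a leukoencephalopathy with cysts, fell by 0.45 ± 0.082 on the log2 scale with SHNK against stressed saline (adjusted p = 0.00848). Gja1 had 286, 287 and 315 CPM in SHNK libraries, against 438, 412 and 336 in stressed saline and 378, 344 and 357 in non-stressed saline libraries. Gja1, the gap junction protein connexin 43, fell by 0.42 ± 0.096 (adjusted p = 0.0223). For both genes the SHNK libraries lay below all 6 others. Mlc1 lost its call on removal of SHNK replicate 2 (adjusted p = 0.0565). Gja1 lost its call on removal of SHNK replicate 1, 2 or 3 or stressed saline replicate 1 or 2 (adjusted p from 0.0510 to 0.105). Gjb6 (connexin 30) had 177, 215 and 225 CPM in SHNK libraries, against 247, 183 and 198 in stressed saline and 222, 251 and 229 in non-stressed saline libraries, with all groups overlapping and a log2 fold change of -0.024 ± 0.12 for SHNK against stressed saline (adjusted p = 0.926, 95% interval of the ratio 0.828 to 1.17).

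For the other glutamate transporter, Slc1a2 had 349, 377 and 317 CPM in SHNK libraries, against 429, 294 and 366 in stressed saline and 364, 477 and 363 in non-stressed saline libraries. These ranges overlapped between all groups, and Slc1a2, which carries most glutamate uptake in the adult forebrain, gave -0.063 ± 0.13 for SHNK against stressed saline (adjusted p = 0.827, 95% interval of the ratio 0.784 to 1.17). The Slc1a3 ratio was 0.774 with a 95% interval of 0.667 to 0.898, so the intervals of the 2 genes overlapped. The difference between the 2 genes was not tested. The bicarbonate cotransporter Slc4a4 gave -0.32 ± 0.098 (adjusted p = 0.0669), the chloride channel family member Ttyh1 -0.31 ± 0.11 (0.0935) and the amino acid transporter Slc7a10, which carries serine and glycine, -0.22 ± 0.099 (0.193). None of these 3 passed by edgeR. Slc4a4 passed by DESeq2 and limma voom (adjusted p = 0.0306 and 0.0345), and Ttyh1 by limma voom (0.0401) and not by DESeq2 (0.0570). Against non-stressed saline the SHNK values were -0.43 ± 0.098 for Slc4a4, -0.43 ± 0.11 for Ttyh1 and -0.37 ± 0.099 for Slc7a10, with adjusted p from 0.0818 to 0.0932.

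Metabolic members were also lowest in SHNK libraries as a mean. Of 8, 4 fell with SHNK against stressed saline and 4 did not pass (median -0.32), 0 passed by edgeR in stressed against non-stressed saline (median -0.066; 0 by DESeq2, 0 by limma voom, 1 with an unadjusted p under 0.05) and 0 in SHNK against non-stressed saline (median -0.32; 5 by DESeq2, 0 by limma voom, 6 with an unadjusted p under 0.05). Their mean log2 CPM was 7.49 ± 0.039 in SHNK, 7.80 ± 0.15 in stressed saline and 7.84 ± 0.016 in non-stressed saline libraries (SD, n = 3). Aldh1l1 had 79.5, 71.7 and 63.7 CPM in SHNK libraries, against 129.7, 92.3 and 102 in stressed saline and 112, 99.7 and 118 in non-stressed saline libraries. Aldh1l1, a folate enzyme and general astrocyte marker (ENSMUSG00000030088.15, chr6:90486427-90600203, plus strand), thus had its 3 lowest values in SHNK. It fell by 0.59 ± 0.12 on the log2 scale with SHNK against stressed saline (adjusted p = 0.0142), differed by -0.025 ± 0.12 in stressed against non-stressed saline (adjusted p = 0.991) and by -0.62 ± 0.12 in SHNK against non-stressed saline (adjusted p = 0.0686). Aldh1l1 lost its call on removal of SHNK replicate 2 or 3 (adjusted p = 0.0628 and 0.0916).

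The other 3 metabolic members that fell belong to lipid metabolism. Acsbg1, an acyl-CoA synthetase, fell by 0.39 ± 0.11 on the log2 scale with SHNK against stressed saline (adjusted p = 0.0439), and averaged 225 ± 5.37 CPM in SHNK, 295 ± 50.8 CPM in stressed saline and 310.2 ± 23.2 CPM in non-stressed saline libraries (SD, n = 3). Gpam fell by 0.38 ± 0.11 (adjusted p = 0.0493), with means of 19.8 ± 1.10 CPM in SHNK and 25.7 ± 3.01 CPM in stressed saline libraries. Fabp7, which binds fatty acids and marks radial glia and astrocytes, fell by 0.52 ± 0.15 (adjusted p = 0.0482); its value in stressed against non-stressed saline was 0.31 ± 0.15 (adjusted p = 0.526). Acsbg1 lost its call on removal of SHNK replicate 1, 2 or 3, stressed saline replicate 1 or 3 or non-stressed saline replicate 1 (adjusted p from 0.0536 to 0.166). Gpam lost its call on removal of SHNK replicate 1, 2 or 3, stressed saline replicate 1 or 2 or non-stressed saline replicate 1 or 3 (adjusted p from 0.0522 to 0.191). Fabp7 lost its call on removal of SHNK replicate 1, 2 or 3, stressed saline replicate 1, 2 or 3 or non-stressed saline replicate 3 (adjusted p from 0.0514 to 0.125). Plpp3, a lipid phosphatase, and Acsl6, an acyl-CoA synthetase for polyunsaturated fatty acids, had SHNK libraries below all 6 others without passing by edgeR against stressed saline (-0.27 ± 0.086 and -0.25 ± 0.087; adjusted p = 0.0790 and 0.0992). Plpp3 passed by DESeq2 and limma voom (adjusted p = 0.0457 and 0.0351), and Acsl6 by neither (0.0707 and 0.0560).

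The glycolytic enzyme Aldoc gave -0.18 ± 0.10 with SHNK against stressed saline (adjusted p = 0.330). Glul had 186, 177 and 204 CPM in SHNK libraries, against 205, 181 and 163 in stressed saline and 186, 219 and 166 in non-stressed saline libraries. All groups overlapped, and Glul, glutamine synthetase, gave 0.050 ± 0.11 for SHNK against stressed saline (adjusted p = 0.832; 95% interval of the ratio 0.880 to 1.22) and -0.059 ± 0.11 for stressed against non-stressed saline (adjusted p = 0.977; 0.815 to 1.13). Glul has processed pseudogenes, so its counts carry that uncertainty.

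**Figure D4:**
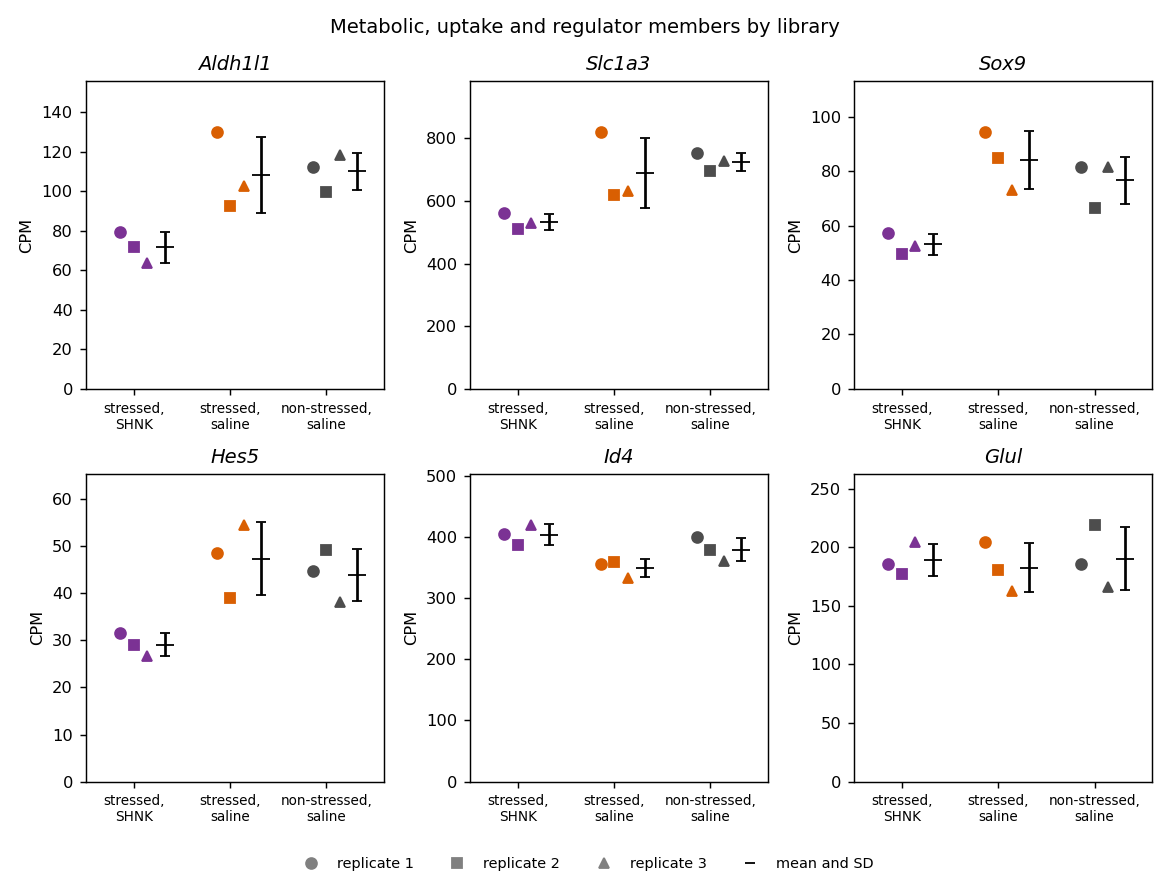
Level in CPM of Aldh1l1, Slc1a3, Sox9, Hes5, Id4 and Glul in each of the 9 libraries by group, with the group mean and SD (n = 3). The SHNK points lie below all 6 saline points for Aldh1l1, Slc1a3, Sox9 and Hes5, the stressed saline points lie lowest for Id4, and the 3 groups overlap for Glul.

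Among 7 regulators and receptors 2 fell with SHNK against stressed saline, while by edgeR 0 passed in stressed against non-stressed saline (0 by DESeq2, 0 by limma voom, 1 with an unadjusted p under 0.05) and 0 in SHNK against non-stressed saline (3 by DESeq2, 0 by limma voom, 5 with an unadjusted p under 0.05). Sox9 had 57.2, 49.7 and 52.3 CPM in SHNK libraries, against 94.2, 84.9 and 73.0 in stressed saline and 81.6, 66.5 and 81.5 in non-stressed saline libraries. SHNK libraries were the lowest 3. Sox9, a transcription factor that in the adult brain marks astrocytes and ependymal cells (ENSMUSG00000000567.5, chr11:112782224-112787760, plus strand), fell by 0.66 ± 0.11 on the log2 scale (adjusted p = 0.00525); against non-stressed saline the SHNK value was -0.53 ± 0.11 (adjusted p = 0.0720). Hes5 had 31.6, 28.9 and 26.7 CPM in SHNK libraries, against 48.6, 39.1 and 54.6 in stressed saline and 44.7, 49.1 and 38.1 in non-stressed saline libraries. Hes5, a transcriptional repressor induced by Notch and the gene whose promoter is shown above (ENSMUSG00000048001.7, chr4:154960923-154962371, plus strand), fell by 0.70 ± 0.13 (adjusted p = 0.00818), with -0.60 ± 0.13 against non-stressed saline (adjusted p = 0.0776). Sox9 kept its call whichever of the 9 libraries was removed (highest adjusted p = 0.0391). Hes5 lost its call on removal of SHNK replicate 3 (adjusted p = 0.0585).

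Fgfr3, a fibroblast growth factor receptor of astrocytes, lay just outside the threshold with -0.45 ± 0.13 for SHNK against stressed saline (adjusted p = 0.0529) and SHNK libraries below all 6 others; it passed by DESeq2 and limma voom (adjusted p = 0.0145 and 0.0212). Id4 had 406, 387 and 420.0 CPM in SHNK libraries, against 356, 359.9 and 333 in stressed saline and 399, 379 and 361 in non-stressed saline libraries. Id4, an inhibitor of basic helix-loop-helix factors, was the 1 member with stressed saline libraries below all 6 others (2.54% of all tested genes). Its log2 fold changes of 0.21 ± 0.074 for SHNK against stressed saline and -0.12 ± 0.074 for stressed against non-stressed saline did not pass (adjusted p = 0.109 and 0.732). Its relative Id3 gave -0.28 ± 0.12 and 0.31 ± 0.12 in these comparisons (adjusted p = 0.169 and 0.336). The neurotensin receptor Ntsr2 gave -0.22 ± 0.11 and Ndrg2 -0.11 ± 0.10 for SHNK against stressed saline (adjusted p = 0.243 and 0.566).

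Among 5 secreted proteins 2 fell with SHNK against stressed saline, and by edgeR 0 passed in stressed against non-stressed saline (0 by DESeq2, 0 by limma voom, 1 with an unadjusted p under 0.05) or in SHNK against non-stressed saline (0 by DESeq2, 0 by limma voom, 2 with an unadjusted p under 0.05). Clu had 1278, 1280.4 and 1302 CPM in SHNK libraries, against 1936, 1700.5 and 1727 in stressed saline and 1477, 1596 and 1399 in non-stressed saline libraries. These ranges separated all 3 groups, with stressed saline highest and SHNK lowest. Clu (ENSMUSG00000022037.15, chr14:65968483-65981547, plus strand) fell by 0.47 ± 0.078 on the log2 scale with SHNK against stressed saline (adjusted p = 0.00496), and its values of 0.26 ± 0.078 in stressed against non-stressed saline and -0.21 ± 0.078 in SHNK against non-stressed saline did not pass (adjusted p = 0.159 and 0.169). Apoe had 4194, 4514 and 4427 CPM in SHNK libraries, against 6037, 4968 and 6282 in stressed saline and 4875, 6172 and 5452 in non-stressed saline libraries. The SHNK libraries were the lowest 3, and Apoe fell by 0.40 ± 0.10 with SHNK against stressed saline (adjusted p = 0.0332). Clu kept its call whichever of the 9 libraries was removed (highest adjusted p = 0.0334). Apoe lost its call on removal of SHNK replicate 1, 2 or 3 or stressed saline replicate 1 or 3 (adjusted p from 0.0678 to 0.115). Apoe is also abundant in microglia, and 15 microglial genes gave 0 calls by edgeR in SHNK against stressed saline (0 by DESeq2, 0 by limma voom, 1 with an unadjusted p under 0.05), with a median log2 fold change of 0.031. The cell type behind the Apoe values was not tested. Sparcl1, Cst3 and the calcium-binding protein S100b gave -0.16 ± 0.092, -0.094 ± 0.10 and -0.036 ± 0.089 with SHNK against stressed saline (adjusted p from 0.323 to 0.855). For S100b the 95% interval of the ratio was 0.854 to 1.11.

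The 3 metallothioneins, small cysteine-rich proteins that bind zinc and copper and respond to glucocorticoids and metals, had 0 calls in any comparison by edgeR, by DESeq2 or by limma voom, and 0 had an unadjusted p under 0.05. Mt1 had 157, 178 and 177 CPM in SHNK libraries, against 185, 187 and 196 in stressed saline and 132, 218 and 184 in non-stressed saline libraries. Mt2 had 42.1, 40.5 and 46.8 CPM in SHNK libraries, against 36.5, 41.7 and 43.9 in stressed saline and 30.1, 46.2 and 38.9 in non-stressed saline libraries. For both genes non-stressed replicate 1 was the lowest of the 9 libraries. Mt3 had 27.4, 33.6 and 28.3 CPM in SHNK libraries, against 31.1, 23.5 and 32.9 in stressed saline and 27.1, 35.4 and 40.4 in non-stressed saline libraries. Log2 fold changes ran from -0.15 to 0.083 for SHNK against stressed saline and from -0.23 to 0.086 for stressed against non-stressed saline. As ratios of SHNK over stressed saline, the 95% intervals were 0.738 to 1.10 for Mt1, 0.868 to 1.29 for Mt2 and 0.814 to 1.28 for Mt3. The 3 genes are related in sequence, and how reads shared between them were counted is not given in the sources used here.

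Without regard to the test, 22 of 34 members had SHNK and stressed saline groups that did not overlap, 21 of them lower in SHNK (30.4% of all tested genes did not overlap). For stressed against non-stressed saline it was 5 (12.9%), and for SHNK against non-stressed saline 20, all lower in SHNK (21.3%). In 15 members the 3 SHNK libraries lay below all 6 others (6.13% of all tested genes) and in 0 above them (6.51%), and in 4, Gfap, Vim, Aqp4 and Clu, the 3 stressed saline libraries lay above all 6 others (4.6%). Within the stressed saline group the members did not vary alike. Replicate 1 was the highest of the 3 for 21 members, including all 8 of uptake, transport and coupling, and replicate 2 was the lowest for 19, while replicate 2 was the highest for Gfap, Vim, Aqp4 and Id4.

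Further astrocyte genes that are not among the 34 were read from 2 other lists. Of 56 genes of astrocyte function 15 fell with SHNK against stressed saline and 0 rose (26.8% fell, where 3.96% of all tested genes did), with a median log2 fold change of -0.28. In stressed against non-stressed saline 2 rose and 0 fell (3.57% rose, where 1.15% of all tested genes did), with a median of -0.024. In SHNK against non-stressed saline 0 of the 56 passed by edgeR (17 by DESeq2, 0 by limma voom, 32 with an unadjusted p under 0.05), with a median of -0.28. Their mean log2 CPM was 5.61 ± 0.012 in SHNK, 5.88 ± 0.13 in stressed saline and 5.89 ± 0.041 in non-stressed saline libraries (SD, n = 3). The 4 with the smallest p in SHNK against stressed saline were the glutamine transporter Slc38a3 at a log2 fold change of -0.48 ± 0.084 (adjusted p = 0.00720), the glycogen phosphorylase kinase subunit Phkg1 at -0.90 ± 0.16 (adjusted p = 0.00807), the ectonucleotidase Entpd2 at -0.54 ± 0.10 (adjusted p = 0.01000) and Cbs, an enzyme of sulphur amino acid metabolism, at -0.51 ± 0.098 (adjusted p = 0.0106). In stressed against non-stressed saline Phkg1 rose by 0.78 ± 0.16 (adjusted p = 0.0334) and the homeodomain protein Hopx by 0.67 ± 0.13 (adjusted p = 0.0179). The 15 became 3 without SHNK replicate 2 or 3 and 8 without stressed saline replicate 1, and the 2 became 0 without stressed saline replicate 2 or 3 or non-stressed saline replicate 1 or 2.

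Of 37 genes known to rise in reactive astrocytes after injury or inflammation, 30 were in the count table and 30 were tested. In SHNK against stressed saline 6 fell and 0 rose (20% fell, where 3.96% of all tested genes did), with a median of -0.21. In stressed against non-stressed saline 2 rose and 0 fell (6.67% rose, where 1.15% of all tested genes did), with a median of 0.24. In SHNK against non-stressed saline 0 passed by edgeR (1 by DESeq2, 0 by limma voom, 7 with an unadjusted p under 0.05), with a median of -0.015. In that comparison 18.3% of all tested genes had an unadjusted p under 0.05. C4b had 3.22, 3.08 and 1.79 CPM in SHNK libraries, against 7.51, 6.30 and 7.24 in stressed saline and 2.54, 2.88 and 3.68 in non-stressed saline libraries. All stressed saline libraries exceeded the other 6. C4b, a complement component that reads of its close copy C4a can reach, fell by 1.37 ± 0.22 (adjusted p = 0.00496) on the log2 scale with SHNK against stressed saline and rose by 1.21 ± 0.22 (adjusted p = 0.0161) in stressed against non-stressed saline. Tm4sf1, a membrane protein that vascular cells also make, fell by 0.50 ± 0.11 (adjusted p = 0.0183) and rose by 0.68 ± 0.11 (adjusted p = 0.00970). Amigo2, an adhesion molecule that neurons also express, and the sphingosine kinase Sphk1 fell with SHNK against stressed saline, at log2 fold changes of -0.58 ± 0.12 (adjusted p = 0.0151) and -0.94 ± 0.21 (adjusted p = 0.0212). The 6 became 1, C4b, without SHNK replicate 2 or 3 or stressed saline replicate 2, and the 2 became 0 without stressed saline replicate 2 or non-stressed saline replicate 1.

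Other cell types give the setting of these values, as mean log2 CPM (SD, n = 3). Neuronal genes (15) stood at 8.96 ± 0.044 in SHNK, 8.79 ± 0.041 in stressed saline and 8.91 ± 0.051 in non-stressed saline libraries; among them Snap25, a vesicle fusion protein, rose with SHNK against stressed saline, at a log2 fold change of 0.52 ± 0.10 (adjusted p = 0.0107). Microglial genes (15) stood at 4.32 ± 0.10 in SHNK, 4.28 ± 0.049 in stressed saline and 4.38 ± 0.12 in non-stressed saline libraries. Genes of endothelial and mural cells (17) stood at 3.91 ± 0.20 in SHNK, 3.95 ± 0.11 in stressed saline and 3.98 ± 0.092 in non-stressed saline libraries. With SHNK against stressed saline 1 of the 17 fell, the tight junction gene Cldn5 (5.88%, where 3.96% of all tested genes fell). Log2 fold changes were above 0 for 9 of the 17 and below 0 for 8 (median 0.0026). Those of oligodendrocytes (16) stood at 6.63 ± 0.12 in SHNK, 6.78 ± 0.23 in stressed saline and 6.62 ± 0.20 in non-stressed saline libraries. Genes of oligodendrocyte precursors (10) stood at 3.80 ± 0.16 in SHNK, 3.99 ± 0.015 in stressed saline and 4.07 ± 0.13 in non-stressed saline libraries, with 0 passing by edgeR in SHNK against stressed saline (2 by DESeq2, 3 by limma voom, 5 with an unadjusted p under 0.05). Choroid plexus genes (13) had summed levels of 70.9 to 105 CPM in SHNK, 75.3 to 115 CPM in stressed saline and 52.7 to 65.2 CPM in non-stressed saline libraries. Of the 13, 4 fell in SHNK against stressed saline (3.96% of all tested genes did) and 3 rose in stressed against non-stressed saline (1.15% of all tested genes did). The part of these cell types in the astrocyte values was not tested.

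**Figure D5:**
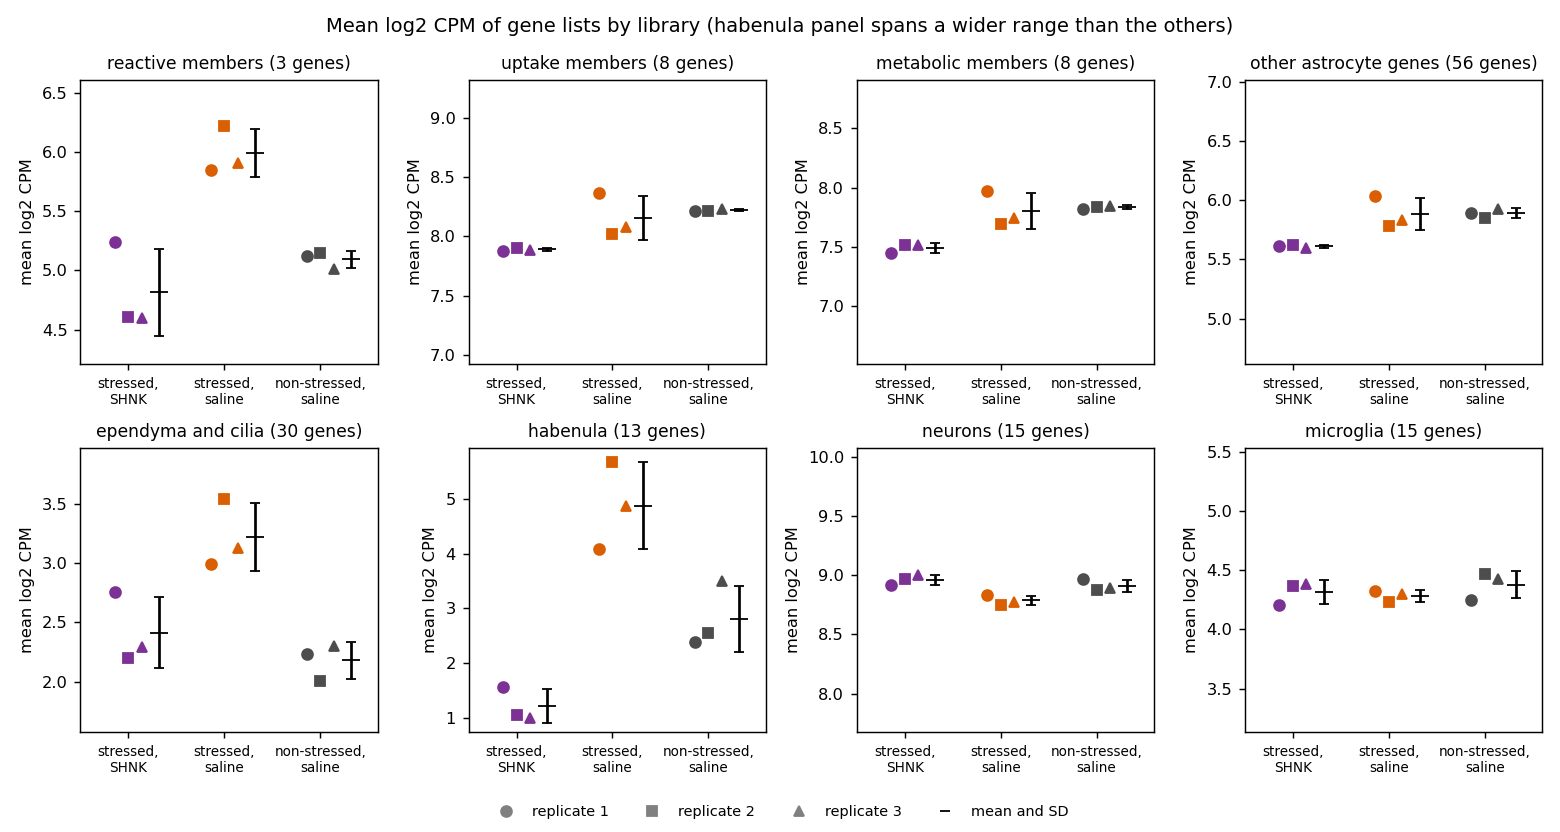
Mean log2 CPM of 8 gene lists in each of the 9 libraries by group, with the group mean and SD (n = 3); the habenula panel spans a wider range than the others. Reactive, ependymal and habenular means are highest in stressed saline libraries, and the uptake, metabolic and further astrocyte means are lowest in SHNK libraries.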

How the data were processed

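The authors deposited raw read counts per gene symbol, with no normalization. Trimmomatic 0.38, HISAT2, StringTie and GRCm38 are named, per the submitters' processing notes; what each was used for, and whether counting used strand, is not given in the sources used here. Per the labels, SMARTer Ultra low RNA and TruSeq libraries were made from 100 ng of total RNA. The table holds 18956 symbols with a count of at least 1 in every library, so genes silent in any library lie outside the comparisons. filterByExpr (minimum count 10, minimum total 15) kept 18194 genes. Counts were scaled by TMM and fitted in 1 edgeR 4.0.16 quasi-likelihood model over 3 groups (R 4.3.3), with Benjamini-Hochberg adjustment across every gene fitted and calls at 0.05. A prior count of 2 entered log2 CPM. Positions and exon lengths are from GENCODE M21 (GRCm38). The fit was tested on simulated data for stressed against non-stressed saline. It recovered 74% to 75% of genes changed 2-fold and 48% to 54% of genes changed 1.5-fold. Of its calls, 4.44% to 7.58% were false. Alternatives were DESeq2 1.42.0, limma 3.58.1 voom, 2 other scalings, 2 other filters, a 2-group fit, a replicate block and leaving out each library. All 34 members are named, and up to 4 genes past the threshold per further list, direction and comparison. Members and lists were chosen with earlier results of these data known. Replicates differed by more than sampling noise in every pair. Total counts were 32307869 to 51569143, so the spread between libraries sets the precision.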

Additional observations from a re-analysis of the deposited data

How the results depend on the processing

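The 14 members that fell with SHNK against stressed saline became 17 by DESeq2, 18 by limma voom, 10 with no filter and 11 with a replicate block, and 5 to 16 when 1 library was left out (5 without SHNK replicate 2 or 3, 8 without stressed saline replicate 1, 9 without SHNK replicate 1 or stressed saline replicate 2). The 2 that rose in stressed against non-stressed saline became 3 by DESeq2, with Vim added, and stayed 2 by limma voom. Leaving out 1 library gave 0 to 2 members that rose. Dropping replicate 1 of non-stressed saline left 1, and dropping replicate 2 of either saline group left 0. For SHNK against non-stressed saline the count of 0 became 13 by DESeq2 and 0 to 9 with 1 library left out, the 9 arising without non-stressed saline replicate 2. Over all genes, the 1167 calls of SHNK against stressed saline were 2005 by DESeq2, 2377 by limma voom and 176 to 1385 with 1 library left out, lowest without SHNK replicate 3; the 213 of stressed against non-stressed saline were 472, 102 and 40 to 306, lowest without stressed saline replicate 2. The 1 call of SHNK against non-stressed saline was 994 by DESeq2, 0 with upper-quartile scaling, with no filter or with 1 CPM in 3 libraries, 9 with only the 2 groups compared, 6 with a replicate block and 0 to 749 with 1 library left out. The cause of these shifts was not tested. Replicate numbers were not used to pair the samples in the main fit. Of 9 same-numbered pairs 1 correlated above 0.1 (deviations from group means, -0.10 to 0.11), beside -0.19 to 0.11 for the 18 other pairs. Of 9 libraries 4 correlated best with their own number. With 3 libraries a group, these values cannot show whether the numbers pair the samples. With the replicate block, 878 and 177 genes were called in the first 2 comparisons. Of the log2 fold changes of members, those past the threshold kept their sign in all 17 alternatives, while 21 of the 86 that were not changed sign in at least 1. Of the member values under an alternative, 1639 kept their side of the threshold, 58 lost it and 37 gained it. Mean levels of the member groups moved by less than 1 SD with a prior count of 0.5 or DESeq2 size factors.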
